A study of Rattus norvegicus with 16 samples.

Results

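The osteoarthritis-like and healthy-like sides of this rat knee cartilage study were compared by pooling 4 groups into 2 sides of 8 libraries each, together all 16 libraries of the series. The osteoarthritis-like side held 4 libraries of osteoarthritic cartilage and 4 of osteoarthritic cartilage given hyaluronic acid (HA) with cells and a drug. The healthy-like side held 4 libraries of healthy cartilage and 4 of osteoarthritic cartilage given cells and a drug in a coacervate, a condensed polymer-rich liquid phase. All animals were 10 weeks old, and all RNA was poly(A)-selected and sequenced in paired ends. Names of the libraries carry Sham for healthy and PBS for untreated osteoarthritic cartilage. The strain, sex, way of inducing disease, kind of cells and drug are not given in the sources used here, and neither is whether libraries came from separate animals, so the spread between libraries may be partly technical. Treatment of healthy joints, and cells or drug without a carrier, are not among the groups, so both treated groups also share cells and drug.

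The sides were chosen by a measured value, a disease score, and not by a label. The score is the mean log2 level, relative to the 16-library mean, of the 72 genes that differed between osteoarthritic and healthy cartilage, with the sign turned for genes that were lower in disease. Scores ran from -0.73 to -0.618 in the healthy libraries and from -0.454 to -0.0736 in the coacervate libraries. They ran from 0.0731 to 0.676 in the HA libraries and from 0.47 to 0.762 in the osteoarthritic libraries. The libraries nearest to each other across the line were HA replicate 4 at 0.0731 and coacervate replicate 3 at -0.0736. Because expression itself selected the sides, the pooled difference below is a description of how they differ, with standard errors and counts past a fixed threshold but with no p-value. Tests are given for other comparisons: between the 2 groups of one side, and between the untreated and treated parts of the difference. These are not wholly apart from the choice of sides. Groups were put on one side because their scores lay close, which favours small differences within a side, and the score genes were called on the untreated part.

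Osteoarthritis is a disease of the whole joint, in which cartilage matrix is broken down by secreted proteases while the synovium and adjoining tissues take up macrophages. Apoe, an apolipoprotein, and Trem2, a lipid-sensing receptor of myeloid cells, mark lipid-handling macrophages. Ccl2 and Ccl7 are chemokines that attract monocytes, and Ctsl encodes cathepsin L, a lysosomal protease. In muscle, by contrast, sarcomere and energy-store genes are switched on by the MEF2 and MyoD families of transcription factors.

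Sequence upstream of genes on which the results turn is shown as the 250 bases before the start, taken from RefSeq on the rat GRCr8 build and printed 5′ to 3′ on the gene's strand. Trem2 (chr9:20151780-20152029, minus strand) and Ccl7 (chr10:67513845-67514094, plus strand) are among the 12 genes highest on the osteoarthritis-like side, and Mmp3 (chr8:12925031-12925280, plus strand) is a collagenase-activating protease that was also higher there. Mmp13 (chr8:12782579-12782828, plus strand), a collagenase from the same gene cluster that was not higher, is set beside Mmp3. Ctsd (chr1:206968822-206969071, minus strand), encoding cathepsin D, stands for the lysosomal genes, and Myh4 (chr10:52421898-52422147, plus strand), a fast myosin heavy chain, for the muscle genes that were lower. Capitals mark 1 match in each window: GAGGAA or its complement in Trem2 (the core bound by the myeloid factor PU.1), TGANTCA in Ccl7, Mmp3 and Mmp13 (the AP-1 site), TCACGTGA in Ctsd (the core of the lysosomal CLEAR element) and a MEF2 site in Myh4.
Trem2: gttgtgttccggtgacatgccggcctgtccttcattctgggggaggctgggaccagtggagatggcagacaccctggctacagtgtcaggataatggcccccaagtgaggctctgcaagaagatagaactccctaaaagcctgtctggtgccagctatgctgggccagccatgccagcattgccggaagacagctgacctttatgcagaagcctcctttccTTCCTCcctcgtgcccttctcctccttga
Ccl7: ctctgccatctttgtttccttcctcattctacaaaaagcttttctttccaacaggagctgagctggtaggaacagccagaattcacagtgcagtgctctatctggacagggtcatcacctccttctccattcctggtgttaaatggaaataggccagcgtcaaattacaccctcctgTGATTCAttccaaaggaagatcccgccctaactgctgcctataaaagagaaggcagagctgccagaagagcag
Mmp3: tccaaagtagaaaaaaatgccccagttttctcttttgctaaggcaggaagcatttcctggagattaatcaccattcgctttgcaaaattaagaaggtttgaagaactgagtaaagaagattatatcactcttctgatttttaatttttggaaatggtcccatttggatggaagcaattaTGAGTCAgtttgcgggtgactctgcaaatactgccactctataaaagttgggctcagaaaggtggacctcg
Mmp13: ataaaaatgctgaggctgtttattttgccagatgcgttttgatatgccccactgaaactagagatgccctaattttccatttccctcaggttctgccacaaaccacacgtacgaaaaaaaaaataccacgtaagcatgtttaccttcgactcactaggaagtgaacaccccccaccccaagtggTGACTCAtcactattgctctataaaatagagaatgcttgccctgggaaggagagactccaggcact
Ctsd: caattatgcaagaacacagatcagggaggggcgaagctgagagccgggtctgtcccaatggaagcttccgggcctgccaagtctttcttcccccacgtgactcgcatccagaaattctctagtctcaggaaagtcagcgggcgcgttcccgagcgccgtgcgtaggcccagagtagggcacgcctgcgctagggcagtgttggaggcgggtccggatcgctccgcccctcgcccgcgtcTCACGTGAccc
Myh4: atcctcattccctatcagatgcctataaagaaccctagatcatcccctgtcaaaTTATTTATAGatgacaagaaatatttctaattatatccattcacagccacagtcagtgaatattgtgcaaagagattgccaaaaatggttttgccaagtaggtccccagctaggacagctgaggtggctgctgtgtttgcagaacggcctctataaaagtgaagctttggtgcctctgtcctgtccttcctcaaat

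Searching both strands of 33469 rat windows of this length found the AP-1 site in 6.34%, the PU.1 core in 23.3%, the CLEAR core in 0.657% and the MEF2 site in 2.96%. Of the 12 highest genes, 9 had a window, and 7 of those held the PU.1 core and 2 the AP-1 site. Of 25 skeletal muscle genes with a window, 5 held a MEF2 site, and of 40 lysosomal genes 4 held the CLEAR core. The percentages count windows, while a gene with several starts counts as a match if any of its windows holds the motif. Apoe held the PU.1 core in 1 of its 3 windows. AP-1 sites stood in the windows of Mmp3, Mmp10, Mmp12 and Mmp13 alike, although the first 3 were higher on the osteoarthritis-like side and Mmp13 was not. These matches describe the letters of the windows, and no binding was measured.

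Sequencing depth was even across the series, with 36988722 to 50725189 counts and 18627 to 19457 detected genes per library. The tissue label was checked against defining genes. Per length, in FPKM (fragments scaled to gene length and library size), Col2a1, the main collagen of cartilage, averaged 411 on the osteoarthritis-like and 336 on the healthy-like side. Col1a1, the collagen of bone and fibrous tissue, averaged 1644 and 1483 FPKM on the same sides and so stood above Col2a1 on both. Haemoglobin genes took 9.57% to 20.6% of counts. Osteoarthritic replicates 2 and 3 stood apart, with 20.6% and 20% haemoglobin, against 9.57% to 15.6% in the other 14 libraries. They differed in more than haemoglobin: ribosomal protein genes took 5.08% and 4.6% of their counts, against 2.85% to 3.37% in the HA libraries. Coacervate replicate 3 stood apart by its skeletal muscle genes, which took 2.74% of its counts against 0.445% to 1.39% elsewhere. Values without these 3 libraries are given beside the results that moved most with them. In tissue RNA, fewer cells of a type and less RNA per cell cannot be told apart.

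Apoe, Trem2, Ccl2, Ccl7 and Ctsl were all higher on the osteoarthritis-like side, and for none of the 5 did the 8 libraries of one side overlap those of the other. Levels are in CPM, that is counts scaled to the size of each library, after normalisation, and log2 differences carry their standard errors. Apoe stood at 322, 227, 574 and 222 CPM in healthy replicates 1 to 4 and at 391, 462, 563 and 272 in coacervate replicates 1 to 4. In the same order it stood at 1349, 1263, 1393 and 2648 in the osteoarthritic and 1313, 2619, 2292 and 1326 in the HA libraries. The lowest osteoarthritis-like library thus held over 2-fold the Apoe level of the highest healthy-like library, and the pooled log2 difference was 2.23 ± 0.26 (4.70-fold, 8 libraries a side).

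Trem2 measured 5.70, 4.48, 2.45 and 4.50 CPM in healthy and 7.52, 8.85, 12.2 and 5.69 in coacervate libraries. It measured 20.9, 16.6, 23.8 and 25.2 CPM in osteoarthritic and 19.8, 39.3, 24.7 and 13.7 in HA libraries. Here the gap between the sides was narrow, from 12.2 in coacervate replicate 3 to 13.7 in HA replicate 4, the 2 libraries that were also nearest in score. The pooled log2 difference of Trem2 was 1.92 ± 0.23, or 3.78-fold.

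Ccl2 measured 2.48, 1.98, 4.49 and 7.69 CPM in healthy, 4.18, 2.85, 6.34 and 1.80 in coacervate, 21.0, 13.1, 12.2 and 33.5 in osteoarthritic and 10.8, 23.0, 19.6 and 14.1 in HA libraries. Ccl7 was low on the healthy-like side, where its libraries ran from 0.478 to 1.78 CPM. On the other side it measured 6.53, 2.82, 3.88 and 10.99 CPM in osteoarthritic and 3.49, 7.63, 6.04 and 5.46 in HA libraries. Osteoarthritic replicate 4 was the top library for both chemokines. The pooled log2 difference was 2.21 ± 0.33 for Ccl2 and 2.67 ± 0.34 for Ccl7, 4.62-fold and 6.36-fold.

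Ctsl differed least of the 5 in size but varied least between libraries. It ran from 114 to 162 CPM over the healthy-like and from 205 to 308 CPM over the osteoarthritis-like libraries, with a pooled log2 difference of 0.83 ± 0.09 (1.78-fold). On the rn6 build used by the submitters, the genes lie at chr1:80612895-80617057 (Apoe), chr9:14611561-14618013 (Trem2), chr10:69412017-69413870 (Ccl2), chr10:69423086-69424979 (Ccl7) and chr17:1872848-1879279 (Ctsl), and Ccl2 and Ccl7 are thus neighbours.

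**Figure D1:**
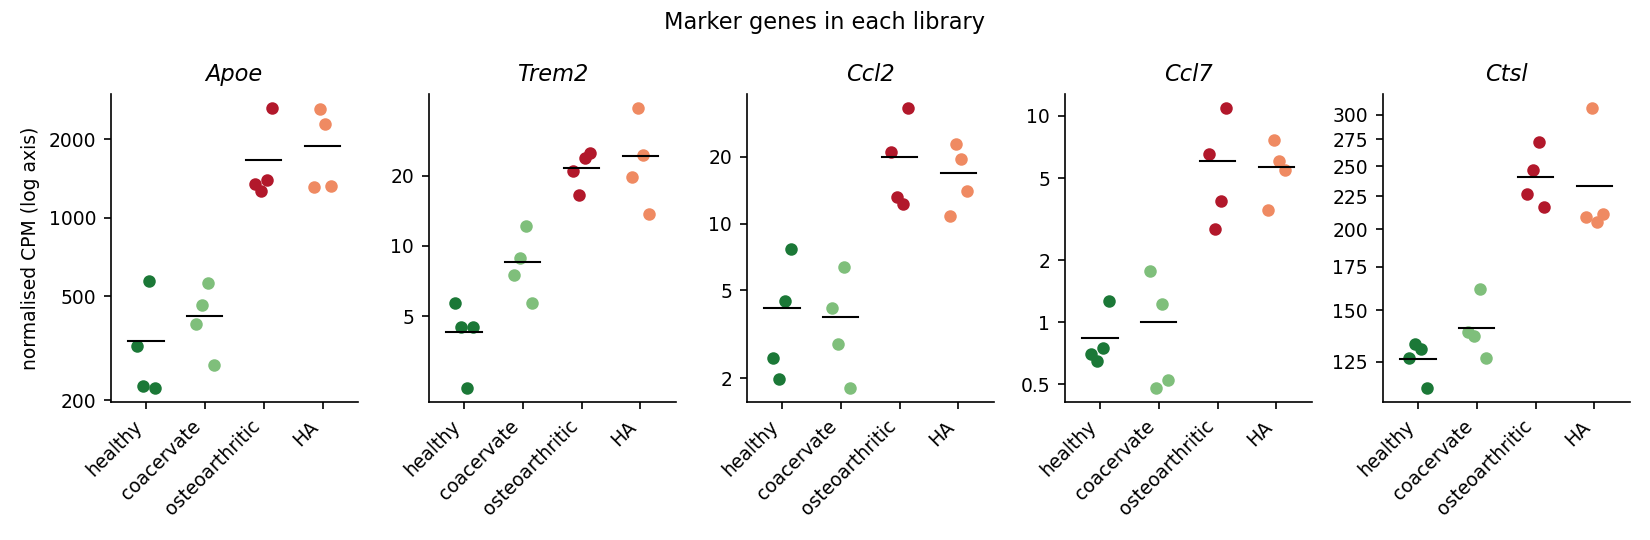
Normalised CPM (vertical log axis) of Apoe, Trem2, Ccl2, Ccl7 and Ctsl in each library, grouped as healthy, coacervate, osteoarthritic and HA, with each point 1 library and each bar the mean of 4. In all 5 panels the 8 points on the right lie above the 8 on the left, with the narrowest gap for Trem2 (12.2 to 13.7 CPM).

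Over all 14337 genes tested, 244 were higher on the osteoarthritis-like side at an adjusted p under 0.05 in edgeR's quasi-likelihood fit, 1.70% of the genes, and 177 were lower, 1.23%. Libraries of the sides did not overlap for 77 genes that were higher (0.537%) and 32 that were lower (0.223%). Counts for the gene lists below are to be read against these shares, at which a short list may hold no such gene. The median pooled difference of the 244 was 0.56 (log2) and 39 of them exceeded 2-fold. The 177 had a median of -0.93, and 68 exceeded 2-fold. Over all tested genes the median was 0.01. Among Gene Ontology terms in the deposited table, lysosomal terms were attached to 25 of the 244 (10.2%) against 2.76% of all tested genes, and inflammatory response to 22 (9.02%) against 2.61%. Terms of muscle and sarcomere were attached to 52 of the 177 lower genes (29.4%) against 2.57% of all.

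Ranked by size among genes past the threshold, without overlap and with at least 5 FPKM on the higher side, the 12 highest were Ccl7, Apoe, Ccl2, Scimp, Trem2, Rab7b, Fabp5, Lilrb4, S100a6, Bcl2a1, Lgals3 and Crip1. Scimp, a transmembrane adaptor of antigen-presenting cells, ran from 1.72 to 3.57 CPM on the healthy-like and from 6.23 to 21.3 on the osteoarthritis-like side (2.00 ± 0.28 on the log2 scale). Rab7b, a small GTPase of late endosomes, had sides that almost touched, with 12.30 CPM in coacervate replicate 3 and 12.33 in osteoarthritic replicate 2 (1.28 ± 0.19). Fabp5, a fatty acid carrier, ran from 20.3 to 34.5 and from 35.1 to 69.7 CPM (1.15 ± 0.15). Lilrb4, an inhibitory receptor of myeloid cells, differed by 1.14 ± 0.18, Bcl2a1, an anti-apoptotic protein, by 1.06 ± 0.17, Lgals3, the lectin galectin-3, by 0.99 ± 0.14, and Crip1, a small zinc-binding protein, by 0.96 ± 0.14.

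S100a6, a calcium-binding protein, leaned on the libraries that stood apart. Crip1 was also highest there, at 134 and 118 CPM in osteoarthritic replicates 2 and 3 and 66.5 and 77.4 in replicates 1 and 4, but stayed past the threshold in all 25 alternative analyses. S100a6 did not. S100a6 measured 205 and 170 CPM in osteoarthritic replicates 2 and 3 but 48.8 and 55.0 in replicates 1 and 4, against 33.2 to 47.7 on the healthy-like side. Its pooled difference of 1.13 ± 0.25 was 0.53 without replicates 2 and 3, still past the threshold, and fell short of it in 10 of 25 alternative analyses.

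**Figure D2:**
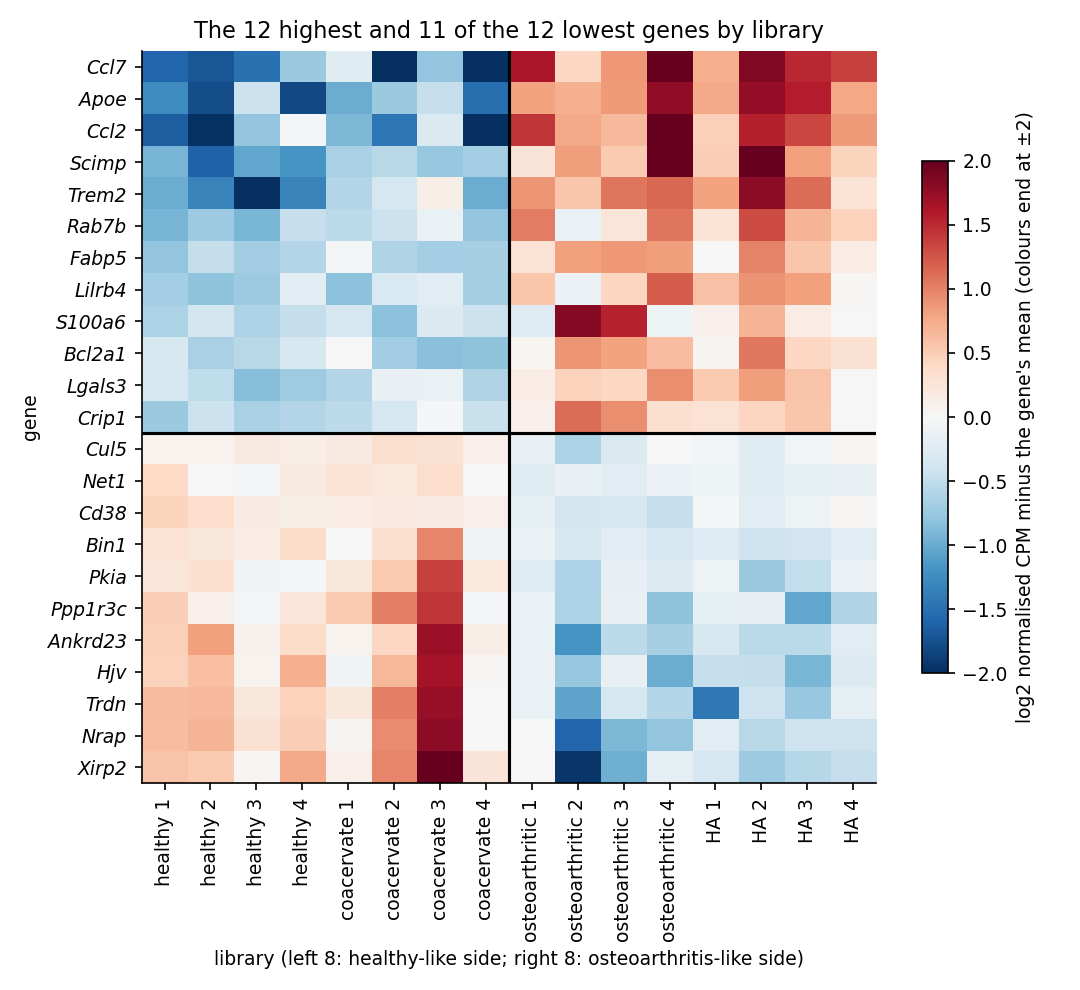
Log2 normalised CPM minus the mean of the gene over 16 libraries (colour, ending at -2 and 2) for the 12 highest and 11 of the 12 lowest genes (rows, by pooled difference) in each library (columns). The upper rows are red on the right, most strongly in osteoarthritic replicate 4 and HA replicate 2 for the chemokines, S100a6 stands out in osteoarthritic replicates 2 and 3, and the muscle genes in the lowest rows stand out in coacervate replicate 3.

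Of 22 tested lipid-handling macrophage genes, 12 were past the threshold and higher, none lower, with a median of 0.50 (log2) against 0.01 over all tested genes, and 6 did not overlap. Beside Apoe, Trem2, Fabp5 and Lgals3 these were Gpnmb, a glycoprotein of lipid-laden macrophages (1.27 ± 0.26), Spp1, osteopontin (0.72 ± 0.17, not past the threshold without osteoarthritic replicates 2 and 3), Clec7a, a fungal glucan receptor (0.64 ± 0.13), Npc2, a lysosomal cholesterol carrier (0.56 ± 0.09), Tyrobp, the signalling partner of Trem2 (0.55 ± 0.14), Ctsd (0.51 ± 0.09), the tetraspanin Cd63 (0.49 ± 0.09) and Lipa, lysosomal acid lipase (0.41 ± 0.10). Gpnmb ran from 451 to 1395 CPM on the osteoarthritis-like and from 220 to 580 CPM on the healthy-like side, so its libraries overlapped. Lpl, lipoprotein lipase, went the other way at -0.44 ± 0.15 and did not pass the threshold. Without osteoarthritic replicates 2 and 3, and likewise without coacervate replicate 3, 10 members passed. Several genes of this list, among them Apoe and Trem2, were known from earlier results of these data.

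Genes that identify macrophages in general differed less. Of 22 tested, 6 passed and were higher, with a median of 0.13. They were Cd14, the lipopolysaccharide co-receptor (0.95 ± 0.18), Folr2, a folate receptor of resident macrophages (0.90 ± 0.17), Lyz2, lysozyme (0.71 ± 0.15), the Fc receptor Fcgr1a (0.57 ± 0.13), the scavenger receptor Msr1 (0.54 ± 0.13) and Spi1, which encodes PU.1 (0.46 ± 0.10). Spi1 did not overlap, at 59.2 to 86.4 CPM on the healthy-like and 93.0 to 154 CPM on the osteoarthritis-like side. Csf1r, the receptor for macrophage growth factor, differed by 0.08 ± 0.13, Adgre1, the F4/80 antigen, by -0.05 ± 0.17 and the mannose receptor Mrc1 by -0.03 ± 0.12, and none of these 3 passed. Without osteoarthritic replicates 2 and 3, 8 members of the list passed, and without coacervate replicate 3, 4. Summed, the macrophage identity genes took 0.509% to 0.785% of counts in the 8 healthy-like and 0.759% to 1.08% in the 8 osteoarthritis-like libraries. The lipid-handling genes took 0.475% to 0.541% and 0.675% to 1.18%, without overlap. Much of the macrophage identity sum was Lyz2, at 3864 to 6036 CPM in healthy-like and 5509 to 11350 CPM in osteoarthritis-like libraries. With each gene weighed alike, the mean log2 level of the identity list did not separate the sides. Relative to the mean of all libraries it ran from -0.272 to 0.216 and from -0.102 to 0.203 in the same order. Its highest library was healthy replicate 1. How far the number of macrophages moves with the single genes was not tested.

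**Figure D3:**
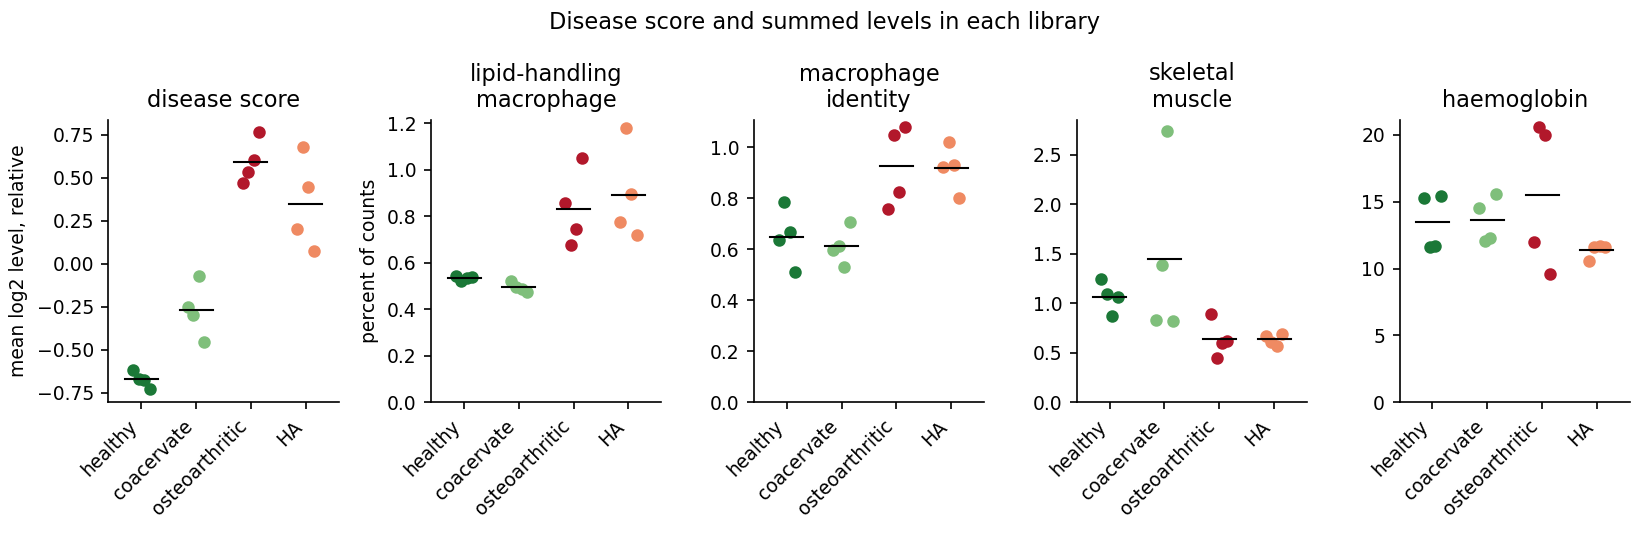
Disease score and, as percent of counts, the summed levels of lipid-handling macrophage, macrophage identity, skeletal muscle and haemoglobin genes in each library, with each point 1 library and each bar the mean of 4. The lipid-handling genes of the osteoarthritic and HA libraries lie at 0.675% to 1.18%, above all healthy and coacervate libraries, while coacervate replicate 3 stands at 2.74% for skeletal muscle and osteoarthritic replicates 2 and 3 at 20.6% and 20% for haemoglobin.

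Of 53 tested genes of the cathepsin and lysosome list, 12 passed and were higher, none lower, while 11 lay below 0 and the median was 0.15. The 2 lists share members, and Npc2, Cd63, Ctsd and Lipa were already counted among the lipid-handling macrophage genes. Ctss, cathepsin S, ran from 36.4 to 58.4 and from 63.0 to 123 CPM (0.75 ± 0.14). Hexa, a subunit of a lysosomal hexosaminidase, differed by 0.29 ± 0.06 and Lamp1, a main protein of the lysosomal membrane, by 0.30 ± 0.06, each without overlap between the sides. Ctsk, cathepsin K of osteoclasts, differed by -0.04 ± 0.19. With the replicates that stood apart left out, 9 members passed without osteoarthritic replicates 2 and 3 and 8 without coacervate replicate 3.

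Among chemokines the difference was narrow. Of 15 tested CC chemokine and receptor genes, 3 passed and were higher, Ccl7, Ccl2 and Ccl9, and the median was 0.23. Ccl9 measured 3.76, 0.820, 1.24 and 1.86 CPM in healthy and 7.94, 8.05, 9.88 and 3.87 in coacervate libraries, against 7.90 to 39.9 CPM on the osteoarthritis-like side. The coacervate libraries of Ccl9 thus reached into the range of the other side, and its pooled difference was 2.03 ± 0.38. Ccl3, Ccl4 and Ccl5 did not pass, at 0.23 ± 0.23, 0.61 ± 0.29 and -0.15 ± 0.40. Of 23 inflammatory mediator genes, 1 passed, Il1rn, the antagonist of the interleukin-1 receptor, at 25.4 to 36.3 CPM on the healthy-like and 42.9 to 98.5 on the osteoarthritis-like side (0.95 ± 0.16). Interleukin-1 beta itself, Il1b, differed by 0.44 ± 0.23 with overlapping libraries. Without osteoarthritic replicates 2 and 3, 3 mediators passed. Il6 did not reach the expression filter. The medians were 0.07 for these mediators and -0.03 for 30 interferon response genes, of which 1, Irf1, passed.

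Matrix proteases were led by the stromelysins. Of 25 tested, 5 passed and were higher, none lower, with a median of 0.31. Mmp3, stromelysin-1, measured 5.00, 7.34, 5.73 and 5.33 CPM in healthy, 17.8, 18.3, 29.4 and 8.22 in coacervate, 63.0, 21.3, 41.5 and 137 in osteoarthritic and 36.8, 134, 81.7 and 14.7 in HA libraries. The healthy libraries were thus the lowest 4, the coacervate libraries lay mostly between, and HA replicate 4 and osteoarthritic replicate 2 overlapped with them. Mmp3 differed by 2.68 ± 0.44, Mmp10, stromelysin-2, by 2.48 ± 0.46 and Mmp12, macrophage elastase, by 2.11 ± 0.46. Mmp2, gelatinase A, differed by 0.80 ± 0.20. Mmp7, matrilysin, differed by 2.90 ± 0.70 but was at 0 CPM in 1 osteoarthritis-like library and at a median of 1.28 CPM there. Mmp13, collagenase-3, was not higher, at -0.23 ± 0.16, nor was Adamts5, an aggrecanase, at 0.24 ± 0.18, although a missed threshold does not show that they were alike. Timp1, an inhibitor of these proteases, was higher without overlap, from 20.6 to 32.4 and from 33.1 to 61.2 CPM (0.84 ± 0.14). Without osteoarthritic replicates 2 and 3, 11 proteases passed in place of 5.

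None of 23 tested cartilage matrix genes passed. Over all tested genes 1.70% passed higher and 1.23% lower, so a list of this size may hold none. The median was 0.20 and 18 of the 23 lay above 0. Without osteoarthritic replicates 2 and 3 the median was 0.33. For osteoarthritic minus healthy it was 0.19, and 0.51 without these 2 libraries. Col2a1 ran from 1090 to 3069 CPM on the osteoarthritis-like and from 1134 to 2658 on the healthy-like side (0.31 ± 0.23). Acan, aggrecan, differed by 0.16 ± 0.25, Comp by 0.27 ± 0.16 and Prg4, the lubricant lubricin, by 0.42 ± 0.26. Sox9, the master factor of chondrocytes, differed by -0.39 ± 0.23. Fibrous matrix genes gave 5 of 40 past the threshold, all higher, with a median of 0.31: Col3a1 (0.99 ± 0.26), Cthrc1 (0.82 ± 0.14), Dpt (0.80 ± 0.18), Mfap5 (0.58 ± 0.14) and Pi16 (0.52 ± 0.13). Leaving out osteoarthritic replicates 2 and 3 gave 12 fibrous matrix genes and a median of 0.55.

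Of 13 tested annexin and S100 genes, which bind calcium and membranes, 7 passed and all 13 were above 0, with a median of 0.52. Anxa2 ran from 256 to 313 CPM on the healthy-like and from 331 to 474 on the osteoarthritis-like side, and S100a11 and S100a4 also did not overlap (0.43 ± 0.07 and 0.90 ± 0.18). All 20 tested neutrophil genes were above 0, with a median of 0.48 (0.27 without osteoarthritic replicates 2 and 3). Only Padi4 passed, at 0.36 ± 0.09, and that call was lost without coacervate replicate 3. The neutrophil median was 0.29 for osteoarthritic minus healthy and 0.60 for HA minus coacervate. Without osteoarthritic replicates 2 and 3 these were -0.06 and 0.60. Neutrophil genes took 0.8% to 1.4% of counts on the healthy-like and 1.11% to 2.53% on the osteoarthritis-like side, the top value being osteoarthritic replicate 2. No gene passed among 24 B cell, 20 T and NK cell, 18 endothelial or 24 erythroid genes, whose medians were -0.24, 0.13, -0.21 and -0.09 (-0.05 for the endothelial list without osteoarthritic replicates 2 and 3). In the same order 22, 7, 15 and 19 of them lay below 0. Over all tested genes only 1.70% passed higher and 1.23% lower, so lists of this size may hold none. Of 17 platelet genes Gp5, a platelet adhesion receptor, passed at -0.53 ± 0.12, and did not pass without osteoarthritic replicates 2 and 3 (-0.46).

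Skeletal muscle genes were lower on the osteoarthritis-like side. All 25 tested were below 0, with a median of -0.85 against 0.01 over all genes, and 11 passed the threshold. None of the 11 was free of overlap, though muscle genes outside the list were. Xirp2, an actin-binding protein of muscle junctions, measured 240, 233, 167 and 273 CPM in healthy, 173, 320, 643 and 194 in coacervate, 162, 42.2, 82.7 and 142 in osteoarthritic and 128, 97.7, 109 and 117 in HA libraries. The sides did not overlap, but healthy replicate 3 and osteoarthritic replicate 1 were close, and coacervate replicate 3 was far above the rest. Xirp2 differed by -1.32 ± 0.29, Nrap, an anchor of muscle actin, by -1.27 ± 0.25, Trdn, a protein of the calcium release complex, by -1.26 ± 0.24, and Ankrd23, a muscle ankyrin repeat protein, by -1.10 ± 0.22. From the list, Myh4 ran from 743 to 2112 CPM on the osteoarthritis-like and from 1798 to 7570 on the healthy-like side (-1.20 ± 0.29). Des, the filament protein desmin, differed by -1.14 ± 0.25 and Mb, myoglobin, by -0.81 ± 0.19.

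The muscle genes took 0.445% to 0.887% of counts in the osteoarthritis-like and 0.816% to 2.74% in the healthy-like libraries. Without coacervate replicate 3, the median of the list was -0.64 and 10 members passed. Without osteoarthritic replicates 2 and 3 the median was -0.91, but 1 member passed. Muscle is not cartilage, and the part that the amount of muscle in each sample has in these lower genes was not tested.

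Of the 12 lowest genes, beside Xirp2, Nrap, Trdn and Ankrd23, Hjv, a co-receptor for bone morphogenetic proteins that is found in muscle, differed by -1.10 ± 0.23, Ppp1r3c, a glycogen-targeting phosphatase subunit, by -0.95 ± 0.19, Pkia, an inhibitor of protein kinase A, by -0.73 ± 0.16 and Bin1, a membrane-shaping protein of muscle tubules, by -0.59 ± 0.12. Smaller differences were found for Cd38, an enzyme that consumes NAD (-0.42 ± 0.07), Net1 (-0.35 ± 0.08) and Cul5 (-0.33 ± 0.08). Cul5 lost its place past the threshold in 17 of 25 alternative analyses. Cd38 was even within the sides, at 26.7 to 37.6 CPM on the osteoarthritis-like and 39.4 to 50.1 on the healthy-like side.

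Immediate early and clock genes included some of the lower ones. Of 25 tested immediate early genes 3 passed, all lower, Nr4a1 (-1.36 ± 0.34), Sik1 (-0.73 ± 0.16) and Arrdc3 (-0.66 ± 0.10), and the median was -0.30. Nr4a1 stood at 143 CPM in coacervate replicate 3, against 17.4 to 62.3 in the other healthy-like libraries. Without that library the list median was -0.05 and Nr4a1, at -0.94, no longer passed. Without osteoarthritic replicates 2 and 3, Arrdc3 alone of the 3 passed. Per1, a light- and hormone-responsive clock gene, was the 1 of 17 clock genes that passed, at -1.37 ± 0.26. It ran from 21.9 to 49.3 CPM on the osteoarthritis-like and from 31.5 to 154 on the healthy-like side, where coacervate replicate 4 was lowest and replicate 3 highest. Lep, leptin, a hormone of fat cells, was low in all libraries, at 0.348 to 1.62 CPM and 2.02 to 5.31 CPM, and did not overlap (-1.69 ± 0.29). All 13 mitochondrially encoded genes were below 0 with a median of -0.36, and none passed.

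**Figure D4:**
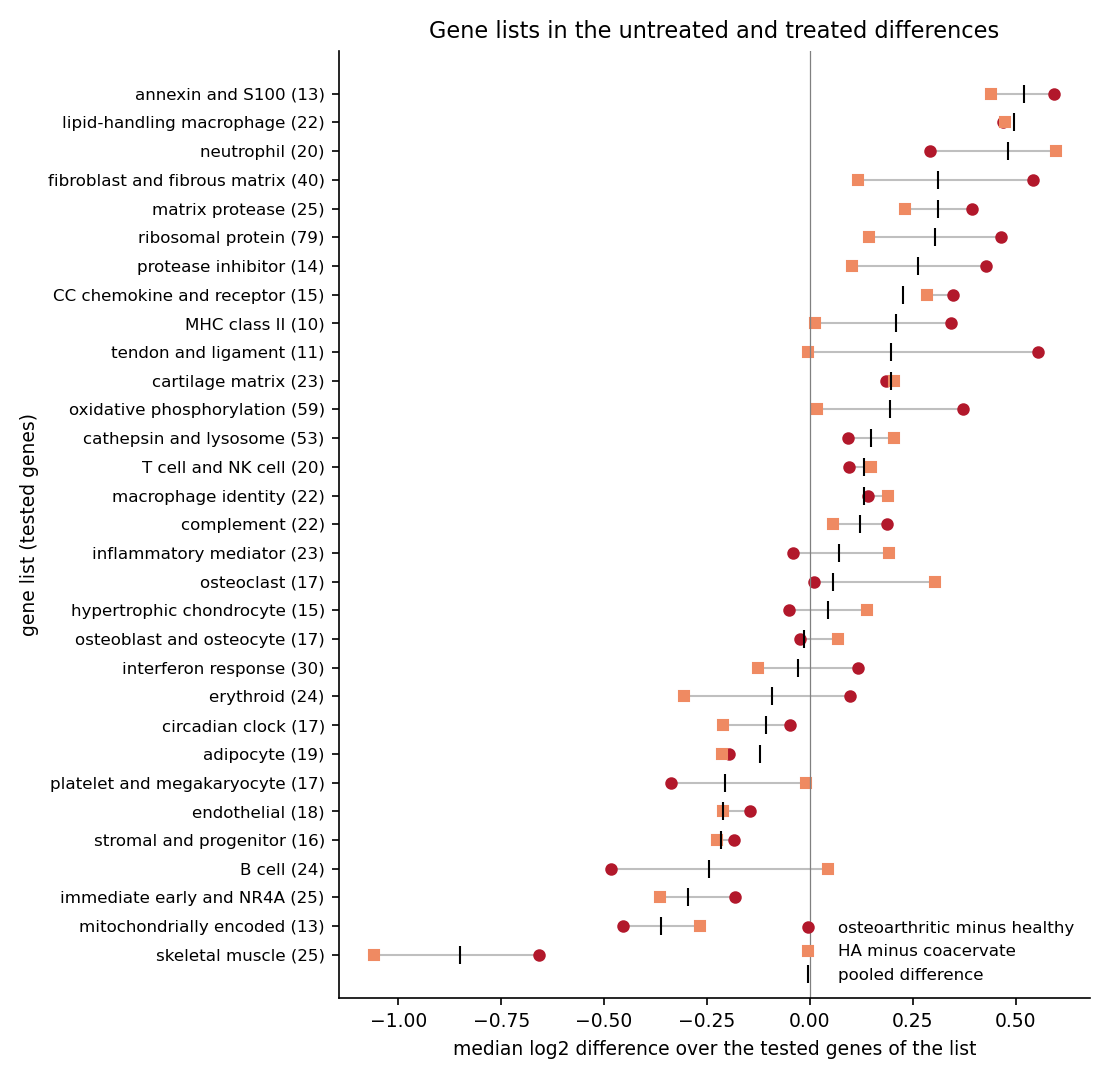
Median log2 difference (horizontal axis) over the tested genes of 31 gene lists (rows, number of genes in brackets), for osteoarthritic minus healthy (circles), HA minus coacervate (squares) and the pooled difference (bars). The annexin and S100 and the lipid-handling macrophage lists lie at the top (0.52 and 0.50 pooled) and the skeletal muscle list at the bottom (-0.85). Several lists, among them the B cell, erythroid, interferon response and inflammatory mediator lists, have their 2 parts on opposite sides of 0.

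The pooled difference is the mean of 2 parts that share no library, the untreated part (osteoarthritic minus healthy) and the treated part (HA minus coacervate). Both were used in choosing the sides. Of the 244 higher genes, all 244 had both osteoarthritis-like group means above both healthy-like means, with medians of 0.62 in the untreated and 0.51 in the treated part. Of the 177 lower genes 176 had both means below, with medians of -0.77 and -1.08. Over all 14337 tested genes, 3990 had both means above and 3776 both below. A call on the mean of the 2 parts favours this order, so these counts do not show separately that the parts are alike. For the 5 markers the untreated and treated parts were 2.31 and 2.16 for Apoe, 2.33 and 1.51 for Trem2, 2.26 and 2.15 for Ccl2, 2.84 and 2.49 for Ccl7 and 0.93 and 0.73 for Ctsl. For Mmp3 they were 3.49 and 1.86, with a difference of 1.63 whose 95% interval, -0.16 to 3.41, holds 0. The list medians of the 2 parts were 0.54 and 0.12 for fibrous matrix genes, or 0.54 and 0.28 without coacervate replicate 3 and 0.97 and 0.12 without osteoarthritic replicates 2 and 3. For skeletal muscle genes they were -0.66 and -1.06, or -0.66 and -0.65 without coacervate replicate 3. The difference between list medians was not tested. Over all 14337 genes the parts correlated at r = 0.45 (Pearson) and rho = 0.45 (Spearman), and 67.7% of genes had the same sign in both.

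**Figure D5:**
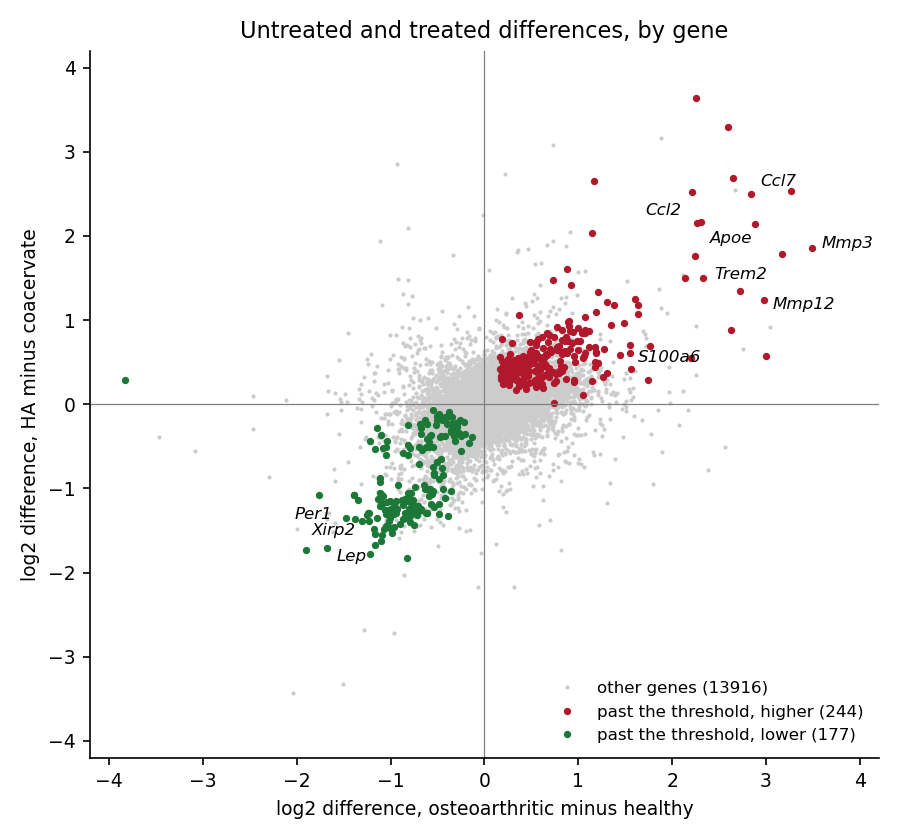
Log2 difference of osteoarthritic minus healthy (horizontal) against HA minus coacervate (vertical), each point 1 of 14330 genes (7 lie outside the axes), with genes past the pooled threshold in red (244, higher) and green (177, lower). The markers Apoe, Ccl2, Ccl7 and Trem2 lie far out at the upper right, above 1.5 on both axes, S100a6 lies near 0.71 on the treated axis, and the muscle gene Xirp2 lies at lower left.

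Taken as separate comparisons in the same fit, osteoarthritic against healthy gave 72 genes at an adjusted p under 0.05 (edgeR), 0.502% of the tested genes, 56 of them higher, and HA against coacervate gave 0 (0%), with 1485 at an unadjusted p under 0.05. For the latter limma gave 0 and DESeq2 325. Of the 72, which define the score, 67 had the same sign in HA against coacervate. The medians of those higher in osteoarthritic cartilage went from 1.09 to 0.61 and of those lower from -0.93 to -0.24.

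Whether the untreated and treated parts differ is another comparison than the pooled difference, and it was tested gene by gene. It is not fully apart from the choice of sides, since the score genes were called on the untreated part. No gene passed in edgeR (0% of 14337), where 635 (4.43%) had an unadjusted p under 0.05 and the lowest adjusted p was 0.953. DESeq2 called 5 genes, Apoc4, Kif17 and the unnamed loci AC093995.1, AABR07065768.1 and AABR07030791.1, and limma none. The DESeq2 log2 differences of Apoc4, AABR07065768.1 and AABR07030791.1 were -24.6, 23.9 and 21.6, sizes not to be read as fold changes. AC093995.1 was near the floor, at 0 to 1.20 CPM. For the markers the difference of the parts was 0.15 for Apoe (95% interval -0.89 to 1.18), 0.11 for Ccl2 (-1.25 to 1.47), 0.35 for Ccl7 (-1.02 to 1.72), 0.83 for Trem2 (-0.10 to 1.76) and 0.21 for Ctsl (-0.19 to 0.60). The intervals of Apoe, Ccl2, Ccl7 and Trem2 hold differences of over 2-fold. Among the 3 lowest p-values in each direction, Kif17, a kinesin motor, gave -0.97 ± 0.22 and Cat, catalase, 0.78 ± 0.19, both at an adjusted p of 0.953 in edgeR.

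Within the osteoarthritis-like side, HA and osteoarthritic libraries were compared. No gene passed in edgeR (0%), with 909 at an unadjusted p under 0.05 and the lowest adjusted p at 0.562. DESeq2 called 8 and limma 1, the unnamed locus AC093995.1. HA minus osteoarthritic was 0.18 for Apoe (95% interval -0.55 to 0.91), 0.17 for Trem2 (-0.48 to 0.82), -0.24 for Ccl2 (-1.18 to 0.70), -0.10 for Ccl7 (-1.03 to 0.83) and -0.05 for Ctsl (-0.32 to 0.23). Mmp3 differed by 0.02, with an interval of -1.21 to 1.26. Cat ran from 155 to 202 CPM in HA and from 213 to 321 in osteoarthritic libraries, without overlap, at -0.60 ± 0.13 and an adjusted p of 0.745 (edgeR). An unadjusted p under 0.05 was found for 6.34% of all tested genes. It was found for 9 of 24 B cell, 15 of 59 oxidative phosphorylation and 10 of 79 ribosomal protein genes. Without osteoarthritic replicates 2 and 3 the counts were 7, 22 and 62. With all libraries the list medians of HA minus osteoarthritic were 0.44, -0.362 and -0.377. Relative to the mean of all libraries, the ribosomal list stood at 0.954 and 0.777 (mean log2) in replicates 2 and 3. It was -0.392 and -0.332 in replicates 1 and 4, below all HA libraries (-0.142 to 0.142). For the oxidative phosphorylation list these were 0.791 and 0.735, -0.351 and -0.284, and -0.159 to 0.0359. Without replicates 2 and 3, both lists were thus higher in HA. The B cell list took 0.435% to 0.492% of counts in HA and 0.258% to 0.372% in osteoarthritic libraries.

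Within the healthy-like side, coacervate and healthy libraries were compared, the coacervate animals being osteoarthritic ones. No gene passed in edgeR (0%), with 552 at an unadjusted p under 0.05 and the lowest adjusted p at 0.232, while DESeq2 called 18 and limma none. Coacervate minus healthy was 0.33 for Apoe (95% interval -0.41 to 1.06), -0.13 for Ccl2 (-1.11 to 0.84), 0.25 for Ccl7 (-0.76 to 1.26) and 0.16 for Ctsl (-0.12 to 0.44). Trem2 stood higher in coacervate libraries by 0.998 (0.33 to 1.67), with an unadjusted p of 0.00619 and an adjusted p of 1 in edgeR. Intervals above 0 were also found for Mmp3 (1.65, 0.35 to 2.95), Mmp10 (1.48, 0.10 to 2.86), Mmp12 (2.39, 0.97 to 3.80) and Ccl9 (1.95, 0.80 to 3.10), and for the matrix genes Comp (0.97, 0.49 to 1.44) and Prg4 (1.14, 0.36 to 1.93). Mmp13 was lower, at -0.67 (-1.15 to -0.19). None of these passed over all genes, with adjusted p of 0.696 to 1 in edgeR. An unadjusted p under 0.05, found for 3.85% of all tested genes, was found for 8 of 25 proteases, 13 of 40 fibrous matrix, 8 of 17 osteoclast, 7 of 23 cartilage matrix and 5 of 11 tendon genes. Without coacervate replicate 3 these counts were 3, 3, 5, 3 and 2. Without osteoarthritic replicates 2 and 3, which share the estimate of spread, they were 12, 20, 8, 10 and 6. The list medians of coacervate minus healthy were 0.27, 0.46, -0.27, -0.01 and 0.52 in the same order.

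The lowest adjusted p-values belonged to the unnamed gene LOC103690326 (-1.19 ± 0.19, adjusted p of 0.232 in edgeR) and to Sfrp2, a secreted modulator of Wnt signalling (1.24 ± 0.23, adjusted p of 0.467). Sfrp2 measured 20.5, 20.7, 19.0 and 17.1 CPM in healthy and 40.7, 46.5, 69.2 and 26.6 in coacervate libraries, without overlap, and 30.0 to 48.0 CPM on the osteoarthritis-like side. For this gene the healthy libraries lay below all others, while 2 of the coacervate libraries lay within the osteoarthritis-like range, 1 above and 1 below it. The pooled difference of Sfrp2 was 0.36 ± 0.16 and did not pass.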

How the data were processed

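RNA was measured in 16 rat knee cartilage libraries, 4 groups of 4. The authors deposited 1 table with whole-number read counts and FPKM values per gene, per the file headers. Reads were handled with cutadapt 1.9, HISAT2 2.2.1, StringTie 2.1.6, DESeq2 and edgeR on the rn6 build, per the submitters' processing notes; how counts were made and the strand setting are not given in the sources used here. Second strands were marked with dUTP, per the labels' protocols.

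Of 23552 genes in the table, 14337 reached 1 FPKM in 4 or more libraries and were tested with edgeR 4.0.16 (R 4.3.3; TMM scaling, quasi-likelihood test, 4 group means, Benjamini-Hochberg adjustment over all tested genes, threshold 0.05). Standard errors come from the fitted log2 difference and its F statistic. Normalised CPM are counts scaled to library size after TMM. The pooled difference is the mean of the osteoarthritic and HA groups minus the mean of the healthy and coacervate groups. Because the sides were selected on a score from these libraries, it is given as a description. The sides, markers and 31 gene lists were chosen with earlier results of these data known. Genes named are the 12 highest and 12 lowest past the threshold without overlap and with at least 5 FPKM on the higher side (62 and 18 were eligible; placeholder symbols left out), the 5 markers, a cartilage and protease panel, and up to 3 members per list with the lowest p. Other members of lists, such as Gpnmb, Csf1r, Mmp7 and Myh4, and the genes named from alternative analyses were chosen after their values were seen. Some items counted here are not reported by name. Sums of lists are percent of raw counts.

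Alternatives were DESeq2 1.42.0, its size factors, limma 3.58.1 on log2(FPKM + 1) and log2(FPKM + 0.1), other filters, a replicate block, 1 mean per side, single parts alone, and libraries left out. The fit was tested on simulated data. Motifs were searched with Python 3.11.15 on both strands of the 250 bases before each RefSeq start; a gene with several starts counts once. Depth limits low genes, and intervals cover the spread between these libraries.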

Additional observations from a re-analysis of the deposited data

Results flagged for a closer look

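In 70 measures, each screened in the 4 groups of 4 libraries, 13 of 280 groups had 1 library far from the other 3, by Dixon's criterion for 4 values. Chance flags about 1 in 20 groups, which is about as many. On the log2 CPM scale, the single genes were Apoe in osteoarthritic replicate 4 (11.4, high), Col1a1 in healthy replicate 3 (13.6, high), Col2a1 in HA replicate 3 (11.6, high), Ctsl in HA replicate 2 (8.27, high), Fabp5 in osteoarthritic replicate 1 (5.41, low) and coacervate replicate 1 (5.11, high), and Sox9 in healthy replicate 3 (3.69, high).

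Among mean log2 levels of gene lists, relative to the 16-library mean, healthy replicate 3 was apart for the lipid-handling macrophage list (-0.0887, high), the protease inhibitor list (-0.364, low) and the skeletal muscle list (0.0404, low). Healthy replicate 1 was apart for the macrophage identity list (0.216, high), osteoarthritic replicate 1 for the interferon response list (-0.538, low) and osteoarthritic replicate 4 for the platelet list (-0.358, low).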

How the results depend on the processing

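The direction of the pooled difference did not turn for any of the 38 genes of the 12 highest, 12 lowest, marker and panel sets under the alternatives run for them, 25 for each gene but Sox9, which the filter at 5 FPKM left out (24). The 5 markers stayed past the threshold in all 25, while Cul5 lost its place in 17, S100a6 in 10, Pkia in 8, and Xirp2 and Mmp12 in 6 each. The size of the counts moved more. DESeq2 gave 625 genes higher and 570 lower, limma 120 and 74 on log2(FPKM + 1) and 126 and 82 on log2(FPKM + 0.1), and no FPKM filter gave 89 lower. All 244 higher and 177 lower genes of edgeR were among those of DESeq2. Without both osteoarthritic replicates 2 and 3, 77 were lower, of which 51 were shared with the 177. Leaving out 1 library gave 117 to 713 higher and 31 to 556 lower genes, with the most without osteoarthritic replicate 1 (713 and 556) and replicate 4 (465 and 334). The fewest were 117 higher without HA replicate 2 or coacervate replicate 2 and 31 lower without HA replicate 3.

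Osteoarthritic against healthy gave 418 genes in DESeq2, 21 and 28 in limma at the pseudocounts of 1 and 0.1, 45 without the FPKM filter, 8 from its 8 libraries alone, 164 without osteoarthritic replicates 2 and 3, and 15 to 1122 with 1 library left out, the top being without osteoarthritic replicate 1. HA against coacervate gave 325 in DESeq2, 0 from its 8 libraries alone, and 0 to 11 with 1 library left out. It gave 149 without osteoarthritic replicates 2 and 3, which are in neither group but share the estimate of spread. The difference of the untreated and treated parts gave 5 in DESeq2 and 0 to 1 with 1 library left out. HA against osteoarthritic gave 8 in DESeq2, 1 in limma at either pseudocount, and 0 to 1 with 1 library left out. Coacervate against healthy gave 18 in DESeq2 and 0 to 1 with 1 library left out, the 1 being Sfrp2 without coacervate replicate 4. What makes these counts move was not tested.

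Replicate numbers did not pair the libraries: deviations of same-numbered libraries correlated between -0.386 and 0.211, over 0.1 in at most 2 of 4 pairs of any 2 groups. With the replicate block 118 genes were higher, 30 lower and 26 differed between osteoarthritic and healthy, and 28 of the 38 named genes kept their side of the threshold. In that fit 0 skeletal muscle genes passed in place of 11 (median -0.81), 2 matrix proteases in place of 5, 5 lysosomal genes in place of 12, 8 lipid-handling macrophage genes in place of 12, 2 fibrous matrix genes in place of 5 and 3 macrophage identity genes in place of 6.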
